A study of Homo sapiens with 10 samples.

Results

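SKBR3-specific protein-coding promoters were 729 of the 76044 regions formed by merging the H3K27ac peak lists of 2 breast cancer cell lines. Peaks of the 8 lists that overlapped by at least 1 bp on chromosomes 1 to 22 and X were merged. A region was kept when it held a peak in all 4 SKBR3 lists and in no MDA-MB-453 list, and had, no more than 1 kb away, an annotated start of transcription (transcription start site, TSS) of a protein-coding gene in the GENCODE v44 basic set. The members were thus chosen by the presence of peaks in each line, so the contrast between the lines is the definition and was not tested. Regions near such a TSS numbered 12348 in all, of which 9643 had a peak in all 4 SKBR3 lists, so the rule took 7.56% of these. The mirror rule gave 702 MDA-MB-453-specific promoters, 6.96% of the 10079 with a peak in all 4 MDA-MB-453 lists, and 8711 promoters had a peak in all 8 lists.

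SKBR3 and MDA-MB-453 are established human breast cancer lines that the study used as its HER2 subtype models. Chromatin immunoprecipitation and sequencing (ChIP-seq) of histone H3 acetylated at lysine 27 (H3K27ac) was done on each line untreated and with TWEAK, the TNF-family ligand of the Fn14 receptor. There were 2 libraries per line and condition. Cells were plated in medium with serum and starved for 8 h in reduced-serum medium, and the treated groups then received 10 ng/ml TWEAK for 48 h, renewed after 24 h. The SKBR3 lists held 43684 to 51687 peaks on the chromosomes used and the MDA-MB-453 lists 36148 to 37813. Promoters of ERBB2, GATA3, KRT8, KRT18, TFAP2C and SPDEF, which mark luminal or HER2-positive cells, had a peak in all 8 lists, and those of the basal keratins KRT5 and KRT14 had none. The basal marker TP63 had a promoter peak in all 4 MDA-MB-453 lists and in 1 SKBR3 list, and SNAI2 in 2 MDA-MB-453 lists.

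H3K27ac is deposited by the acetyltransferases p300 and CBP on nucleosomes beside active promoters and enhancers. Promoters of genes used in most cells usually lie in CpG islands, short stretches rich in C and G where CpG dinucleotides have not been lost. Promoters used in fewer tissues more often lack an island, and many genes have alternative promoters that begin transcripts with different first exons. AP-1, a dimer of FOS and JUN proteins, and NF-kB are families of inducible transcription factors, and TNF-family receptors act through NF-kB.

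Sequences upstream of 6 members are shown as examples of low CpG content and of TATA boxes and AP-1 and NF-kB motifs close to a TSS. The shares given further on were scored at 1 TSS per region, the one nearest its midpoint where several lie inside. At S100A4, TNF and EGF that is another TSS than the one printed, so the TATA boxes of S100A4 and TNF and the AP-1 motif of EGF shown here are not among the matches counted there. Each is the 150 bases before an annotated TSS that lies inside the member region, in hg38 and read 5′ to 3′ on the gene's strand, and holds no annotated exon. In the first 2, at the genes for a calcium-binding protein and the cytokine TNF, capitals mark a TATA box that begins 31 and 29 bases before the TSS.
S100A4, chr1:153545807-153545956, minus strand: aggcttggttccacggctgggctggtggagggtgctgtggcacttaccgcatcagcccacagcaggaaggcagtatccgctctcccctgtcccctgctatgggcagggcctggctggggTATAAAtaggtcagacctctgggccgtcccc
TNF, chr6:31575415-31575564, plus strand: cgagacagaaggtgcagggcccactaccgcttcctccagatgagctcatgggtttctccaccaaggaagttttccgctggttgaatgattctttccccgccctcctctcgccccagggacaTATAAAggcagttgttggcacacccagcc

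The next 3 belong to the receptor for colony stimulating factor 1, to epidermal growth factor and to the paired-box transcription factor PAX8. Capitals mark the AP-1 motif TGANTCA, and at PAX8 also the E-box CACGTG.
CSF1R, chr5:150113373-150113522, minus strand: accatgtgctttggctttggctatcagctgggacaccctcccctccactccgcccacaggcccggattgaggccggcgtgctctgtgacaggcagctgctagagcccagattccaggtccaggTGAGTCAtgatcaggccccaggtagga
EGF, chr4:109912733-109912882, plus strand: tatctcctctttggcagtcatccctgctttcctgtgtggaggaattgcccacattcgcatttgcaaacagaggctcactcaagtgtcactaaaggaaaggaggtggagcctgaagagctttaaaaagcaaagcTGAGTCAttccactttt
PAX8, chr2:113241780-113241929, minus strand: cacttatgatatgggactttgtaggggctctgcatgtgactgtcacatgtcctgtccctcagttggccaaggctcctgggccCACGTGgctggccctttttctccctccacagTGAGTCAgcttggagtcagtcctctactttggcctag

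In the IL6 promoter, which drives the cytokine interleukin 6, capitals mark a match to the NF-kB motif that begins 20 bases before this TSS. Each of the 6 stretches held 1 to 5 CpG dinucleotides.
IL6, chr7:22726997-22727146, plus strand: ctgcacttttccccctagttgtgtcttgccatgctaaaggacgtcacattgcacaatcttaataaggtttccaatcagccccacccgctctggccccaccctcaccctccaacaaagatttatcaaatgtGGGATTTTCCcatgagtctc

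The H3K27ac level of a region in a library was taken as the fold enrichment over input of its peaks, averaged by their width, and is also given as its percentile among all regions with a peak in that library. Members were weaker than the promoters shared by both lines. Their median percentile was 56.4 and 52.7 in the untreated SKBR3 libraries and 56.1 and 57.8 in the TWEAK libraries. For the promoters in all 8 lists, the same medians were 81.3, 80.0, 79.8 and 78.2. In MDA-MB-453 the mirror set stood at medians of 46.3 to 48.3. The median peak width of members was 1640 to 1765 bp by library against 1966 to 2101 bp for the shared promoters. All these sets were defined by the presence of peaks, which itself depends on level. The differences in level and width are therefore not independent of the rule and were not tested.

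**Figure D1:**
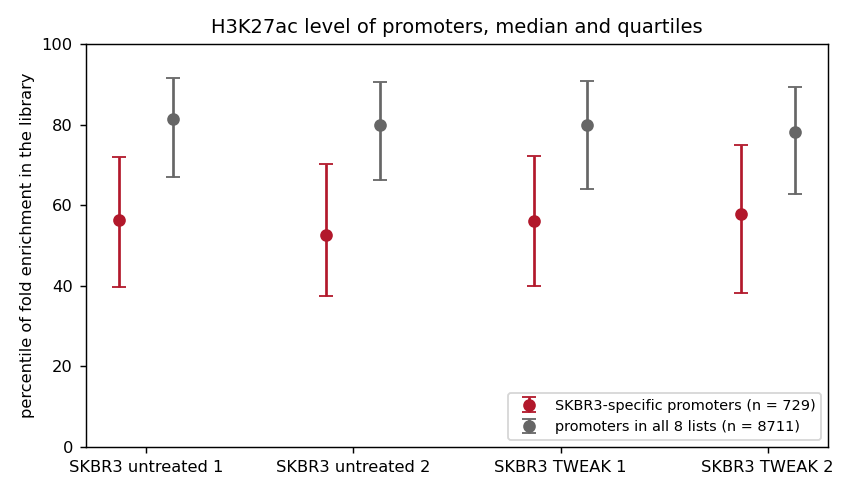
Percentile of H3K27ac fold enrichment within each SKBR3 library (vertical axis, 0 to 100) for the 729 SKBR3-specific promoters and the 8711 promoters in all 8 lists. Points are medians and bars run from the lower to the upper quartile over promoters; in each of the 4 libraries the median of the SKBR3-specific promoters is below the lower quartile of the shared promoters.

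Levels spread widely among members. Mean percentiles over the 4 libraries ran from 3.36 to 99.9, with 39 members above 90 and 6 below 10. For a typical member, the highest and lowest library lay 20.04 percentile points apart (median over members). A −log10 q of at least 5 in all 4 lists was reached by 267 members, or 36.6%.

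The strongest member was at MGLL, which encodes the lipase that breaks down monoacylglycerols (chr3:127815071-127824962). Its fold enrichment was 25.7 and 33.5 untreated and 34.0 and 29.7 with TWEAK, and its percentile was at least 99.8 in every SKBR3 library. The other 9 of the 10 strongest, with mean percentiles of 96.5 to 99.1, lay at PDE4D (a cyclic AMP phosphodiesterase), TCEA2 (a transcription elongation factor), KLF7 (a zinc finger transcription factor), TMEM40 (a membrane protein), C1S (a complement protease), HRH1 (the histamine H1 receptor), MISP (a mitotic spindle protein), the S100A3 to S100A6 genes, and EPHB6 (an Eph-family receptor without kinase activity). All 10 had a percentile above 94 in each of the 4 libraries.

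The S100 member was among the widest as well as the strongest. It spanned chr1:153531001-153557753 and held the start sites of S100A3, S100A4, S100A5 and S100A6, a cluster of small calcium-binding protein genes. Peaks covered 26753 and 21888 bp of it untreated and 24765 and 23159 bp with TWEAK. The widest member lay at SPECC1, a cytospin-family gene, with a mean width of 27664 bp over the 4 libraries. WNT7B, a WNT ligand, followed the S100 member with 23839 bp, then SYNPO, which encodes the actin-associated protein synaptopodin, with 23374 bp, and EPB41L1, a membrane skeleton gene, with 22658 bp. Width and level did not go together at WNT7B, whose percentile was only 48.7, 54.9, 58.2 and 57.6. The nearest WNT7B TSS lay outside this member. A region 0.829 kb away held another WNT7B promoter with a peak in all 8 lists, averaging 76.8 in SKBR3 and 47.6 in MDA-MB-453. A mean width over 5 kb was found for 89 members and one under 500 bp for 27.

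At the weak end stood MEST, an imprinted gene, with a fold enrichment of 2.46 and 2.57 untreated and 2.76 and 2.37 with TWEAK. PEDS1, a desaturase of ether lipids, was next with a mean percentile of 6.54. At both genes the nearest TSS lay outside the member, and another promoter had a peak in all 8 lists. That promoter averaged 88.6 in SKBR3 and 74.2 in MDA-MB-453 at MEST, and 80.6 and 72.3 at PEDS1. Just outside the rule were 193 promoters that missed 1 SKBR3 list, with a median mean percentile of 27, and 58 that had 1 MDA-MB-453 peak, with a median of 52.3. The strongest of the former were FGL1 (mean percentile 64.7) and PHETA1 (61.7). The strongest of the latter was CATIP, at 99.9 in SKBR3 and with 1 MDA-MB-453 peak at the 7.32nd percentile, followed by C13orf46 at 97.9.

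Members differed from shared promoters in base composition, which the rule did not use. In 500 bp centred on the TSS nearest each region, the ratio of observed to expected CpG had a median of 0.40 for members, 0.77 for MDA-MB-453-specific promoters and 0.84 for promoters in all 8 lists. A ratio under 0.6, called CpG-poor here, was found for 458 members, or 62.8% (95% Wilson interval 59.3 to 66.3). The share was 28.3% (25.1 to 31.8) of MDA-MB-453-specific promoters, 13.8% (13.1 to 14.6) of those in all 8 lists and 23.3% of all 12348. Of the 580 members with a TSS inside the region, 61.7% were CpG-poor. Intervals treat promoters as independent and do not cover differences between libraries.

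The AP-1 motif TGANTCA, searched in the same 500 bp on both strands, occurred in 118 members, or 16.2%, against 7.55% of MDA-MB-453-specific promoters, 6.15% of promoters in all 8 lists and 7.26% of all promoters. Part of that gap moved with CpG content. Among CpG-poor promoters, the share was 22.1% (18.5 to 26.1) of 458 members, 15.6% (11.2 to 21.3) of 199 MDA-MB-453-specific promoters and 16.6% (14.6 to 18.8) of 1204 in all 8 lists, and the first and last intervals overlap slightly. Outside the CpG-poor class, the shares were 6.27%, 4.37% and 4.48%. The ETS motif CCGGAAG went the other way, with 6.72% of members, 13.5% of MDA-MB-453-specific promoters, 24.1% of promoters in all 8 lists and 19.8% of all promoters. TATAAA between 40 and 20 bases before the TSS was found in 20 members (2.74%), 2.71% of MDA-MB-453-specific promoters, 0.999% of shared promoters and 1.41% of all. The NF-kB motif differed little, at 12.8% of members, 11.5% of MDA-MB-453-specific promoters, 11.8% of promoters in all 8 lists and 11.9% of all promoters, and the E-box CACGTG was found in 8.78% of members, 7.69% of MDA-MB-453-specific promoters, 12.5% of promoters in all 8 lists and 11.6% of all. A motif match is a string of letters and not a bound site.

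Genes with a member often had a second promoter that was acetylated in MDA-MB-453. The 729 regions lay at 721 genes, 6.64% of the 10864 genes with a promoter region in all 4 SKBR3 lists. Of these, 196 genes, or 27.2% (24.1 to 30.5), had another promoter region with a peak in all 4 MDA-MB-453 lists, at a TSS not within 1 kb of the member. The same held for 5.48% of the 10171 genes of promoters in all 8 lists. In the mirror comparison, 75 of the 717 genes of MDA-MB-453-specific promoters (10.5%, 8.43 to 12.9) had another promoter in all 4 SKBR3 lists. Genes with more annotated start sites have more chances of a second promoter, and the median number was 3 for member genes, 3 for MDA-MB-453-specific genes and 2 for genes of shared promoters.

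**Figure D2:**
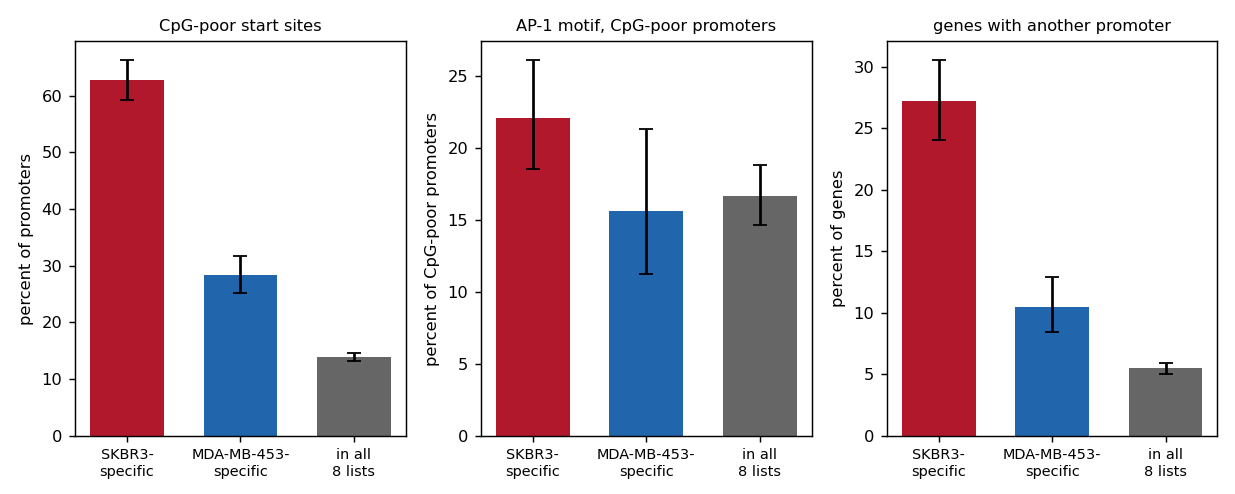
Bars give the percent of promoters that were CpG-poor (left), the percent of CpG-poor promoters with the AP-1 motif within 500 bp centred on the TSS (middle), and the percent of genes with another promoter (right), for SKBR3-specific promoters, MDA-MB-453-specific promoters and promoters in all 8 lists. In the right panel the other promoter had a peak in all 4 MDA-MB-453 lists, or in all 4 SKBR3 lists for the MDA-MB-453-specific set. Lines are 95% Wilson intervals; SKBR3-specific promoters are highest in each panel, at 62.8%, 22.1% and 27.2%.

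In 180 of the 196 genes, the second promoter also had a peak in all 4 SKBR3 lists. There SKBR3 had peaks at the member and at the second promoter, and MDA-MB-453 only at the latter. Whether transcripts began at either promoter was not tested. The member was downstream of the second promoter in 149 genes and upstream in 47, with a median of 23.3 kb between them. Of the 207 member regions at such genes, 82.1% were CpG-poor, against 55.2% of the other 522. At 507 of the 721 genes, no promoter region had a peak in any MDA-MB-453 list.

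PDE4D was the strongest of these genes and, among the 5 strongest, the only one without a peak at the second promoter in SKBR3. Its member (chr5:59271306-59279546) stood at percentiles of 99.0, 99.5, 98.7 and 99.3. The second promoter, 1212 kb upstream, had no peak in any SKBR3 list and stood at 31.2, 39.4, 33.8 and 24.96 in MDA-MB-453.

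At CDH5, which encodes VE-cadherin, both promoters were strong in SKBR3. The member (chr16:66377103-66384741) was at percentiles of 91.0 and 93.3 untreated and 96.0 and 97.9 with TWEAK. The promoter 12.5 kb upstream of it averaged 95.9 in SKBR3 and 90.7 in MDA-MB-453. So it was the downstream promoter alone that differed in the presence of a peak, by the rule that chose it.

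Members at ABHD17C, a depalmitoylating enzyme, and IQSEC1, an exchange factor for the ARF6 GTPase, lay upstream of the shared promoter. The ABHD17C member averaged 94.2, and its second promoter averaged 70.2 in SKBR3 and 69.8 in MDA-MB-453. For IQSEC1 the corresponding values were 90.8, 61.2 and 51.9. At TCEA2 the promoters were 5.89 kb apart and their regions were separated by 0.937 kb, so this member borders a region shared by both lines. The TCEA2 member averaged 99.0 and its neighbour 55.7 in SKBR3 and 36.9 in MDA-MB-453.

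**Figure D3:**
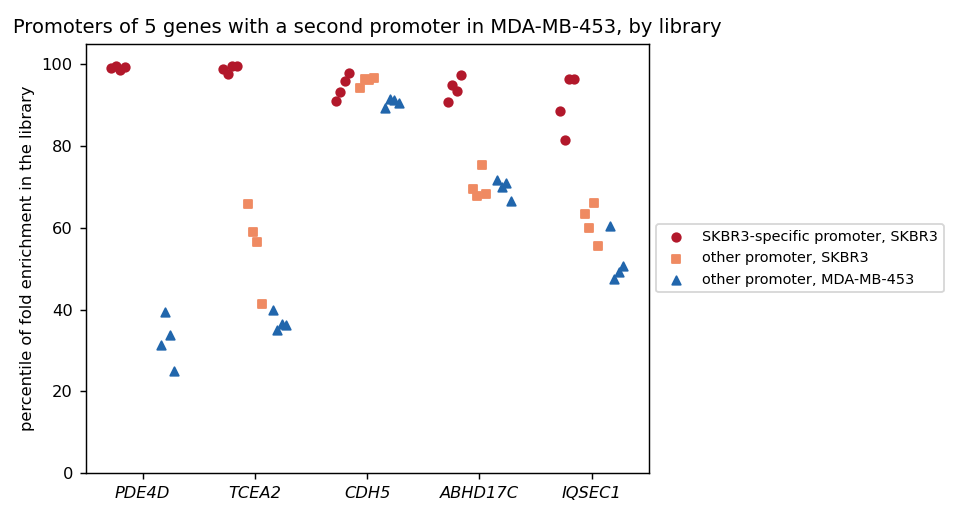
Percentile of H3K27ac fold enrichment within each library (vertical axis) for the 5 strongest genes with a second promoter in all 4 MDA-MB-453 lists. Each symbol is 1 library: circles are the SKBR3-specific promoter, squares the other promoter in SKBR3 and triangles the other promoter in MDA-MB-453. At CDH5 all 12 symbols are above 89, and at PDE4D the other promoter has no square because it had no SKBR3 peak.

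Of the member regions, 697 (95.6%) lay at a single gene, against 81.1% of promoters in all 8 lists. With members up to 100 kb apart joined, the groups with most members had 4: AGPAT3, an acyltransferase gene with 4 of its own promoters over 77.6 kb; the HSPB9/KAT2A, GHDC, STAT5B and STAT3 promoters over 239 kb; and 4 MAGEA promoters over 71.9 kb of chromosome X. MID1 and SYNPO had 3 members each. By chromosome, members made up from 5.53% (chromosome 19) to 12.3% (chromosome 21, interval 7.46 to 19.6) of the promoters in all 4 SKBR3 lists, and chromosome 7 stood at 11% (8.51 to 14.1). DNA copy number was not analysed here.

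The 4 MAGEA members lay at MAGEA3, MAGEA2B, MAGEA2 and MAGEA6, germline genes known for their expression in tumours. Percentiles at MAGEA6 were 97.6 and 93.6 untreated and 96.7 and 96.4 with TWEAK. MAGEA3 averaged 93.0, MAGEA2B 77.7 and MAGEA2 75. These genes are near-identical copies, so reads can be placed at the wrong copy and the split between them is uncertain. The same applies to PSG4, a pregnancy-specific glycoprotein gene (mean percentile 95.8), and to SYT15 (92.8) and ANXA8 (85.2), which also have close copies.

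Of the SKBR3-specific regions that are not promoters, at least 1 lay within 50 kb of 445 members, or 61.0%, against 45.1% of promoters in all 8 lists. The nearest MDA-MB-453 peak region was a median of 15.6 kb away, within 5 kb of 176 members and beyond 50 kb of 144. A TSS lay inside the region for 580 members (79.6%), against 98.7% of promoters in all 8 lists and 83.2% of MDA-MB-453-specific promoters.

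Gene lists fixed with earlier results known were read against the 6.64% of genes with a promoter in all 4 SKBR3 lists that had a member. Each count below is of genes with a member out of list genes with a promoter region in all 4 SKBR3 lists, and most lists are too short for a share to be told from that background. Several genes with a member also have another promoter with a peak in all 4 MDA-MB-453 lists. Among those named below are ITGB2, CTNNB1, CTNND1, SYT12, RUNX1, RARG, TNIP1, STAT3, TYK2, TGFBR1, SMAD3 and WNT7B. Mirror counts are of genes with an MDA-MB-453-specific promoter. Their share over all genes was not worked out, and over promoter regions it was 6.96%. Among receptor tyrosine kinases, 3 of 16 had a member, and by the mirror count 6 of 19 had an MDA-MB-453-specific promoter. CSF1R, the receptor known from macrophages, stood at percentiles of 94.9, 95.6, 96.0 and 96.7 over a region of chr5:150106511-150115706. EPHB6 was as high, at 94.8, 94.6, 97.9 and 98.7, whereas MET, the receptor of hepatocyte growth factor, was at 38.4, 42.8, 40.02 and 2.49. The ERBB ligand list gave 1 of 4, EGF, at 57.1, 51.4, 55.5 and 60.2.

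Mesenchymal and basal genes gave 4 of 8, among them S100A4, the EMT transcription factor SNAI1 and the collagen COL6A1. SNAI1 averaged 58.7 and COL6A1 44.1. The mirror count was 1 of 6. VIM and ZEB1, which mark mesenchymal cells, were in 4 MDA-MB-453 and 3 SKBR3 lists each and are specific to neither line.

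Keratins gave 4 of 13 with a member and none specific to MDA-MB-453. KRT13, a keratin of stratified epithelia that do not cornify, was the strongest at 90.01, 91.4, 89.4 and 89.3. KRT40 averaged 48.8, KRT16, which rises in wounded skin, 39.6, and KRT78 33.5. Epithelial junction genes gave 6 of 34, led by the plakophilin PKP2 (64.2), beta-catenin CTNNB1 (63.1), PKP1 (60.6) and the p120 catenin CTNND1 (35.5). Another CTNNB1 promoter, with a peak in all 8 lists, averaged 85.4 in SKBR3 and 63.3 in MDA-MB-453. Another CTNND1 promoter in all 8 lists averaged 91.6 and 96.0. Of the 37 junction genes with a promoter in all 4 MDA-MB-453 lists, 4 were specific to that line, the cadherins CDH1 and CDH3 among them. Synaptotagmins, a family added later because its members were seen in the list, gave 4 of 7: SYT15, SYT12, SYT8 and SYT1.

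Of transcription factor lists, luminal and hormone-responsive factors gave 2 of 14. ELF5, a factor of alveolar mammary cells, was at 76.1, 72.0, 78.3 and 70.8. RUNX1 varied more, at 18.0, 10.9, 24.3 and 56.9. The epithelial factors gave 1 of 18, KLF5 (46.8), and nuclear receptors 4 of 28 (6 of 30 in the mirror count), namely the retinoic acid receptors RARB (69.4) and RARG (29.5), the adipocyte regulator PPARG (62.7) and NR2E3 (51.8). No apocrine or androgen response gene of 14 and no Notch pathway gene of 13 had a member.

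Signalling lists held few members each. TNF ligands and receptors gave 3 of 18 (4 of 19 in the mirror count for MDA-MB-453): TNF, TNFSF9 (49.2) and TNFRSF25 (23.7). Genes of NF-kB subunits and inhibitors gave 1 of 17, TNIP1, which encodes an inhibitor that binds A20 (85.2). The interferon list gave 7 of 40 and 6 of 41 in the mirror count, with the receptor chain IFNAR2 at 82.8, STAT3 at 78.3, the kinase TYK2 at 77.9 and IFITM3 at 66.5. Cytokines and their receptors gave 3 of 15, and 4 of 16 in the mirror count: IL12A (73.7), IL6 (44.6) and IL23A (22.8). TGF-beta and BMP genes gave 4 of 28, and 6 of 32 in the mirror count, with the receptors BMPR1A (72.3) and TGFBR1 (12.4), SMAD3 (63.6) and the ligand BMP7 (17.1). The WNT pathway list gave 2 of 15, the ligands WNT2B (61.7) and WNT7B (54.8), and integrins 2 of 11, ITGB2 (87.3) and ITGA5 (45.4).

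Large families differed in how often they had a member. Zinc finger genes gave 12 of 359, or 3.34%, whereas 60 zinc finger genes had an MDA-MB-453-specific promoter, out of 432 with a promoter in all 4 of that line's lists. Ribosomal protein genes gave 1 of 80, the paralog RPL39L, at 72.1, 76.4, 71.0 and 75.2. Solute carriers gave 18 of 178 (10.1%), potassium channel genes 5 of 13, led by KCNMB1 (75.1), and RAB GTPases 4 of 46, led by RAB31 (80.1).

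The comparison of TWEAK with untreated SKBR3 asked whether these promoters respond to Fn14 signalling. The rule asked for a peak in all 4 SKBR3 lists, treated and untreated alike, so promoters that gained a peak from none or lost it altogether with TWEAK cannot be members and the counts leave them out. In the fit without a replicate block, 6 promoters rose with TWEAK and no fall was called. With the replicate number as a block, 48 members were called higher and 14 lower, and 1745 and 578 of all regions. The labels do not show that the numbers pair the libraries, so the calls below are those without the block. The log2 fold enrichment of the 30481 regions with a peak in all 4 SKBR3 lists was quantile normalized and tested with limma, and the p-values were adjusted over all of them. Of all regions tested, 171 (0.561%) were called higher and 0 (0%) lower at an adjusted p under 0.05. Among members 6 of 729 were higher and 0 lower. The difference was above 0 for 325 members (44.6%) and for 43.9% of all regions. Without normalization these shares were 56.0% and 55.8%, so the direction of most differences depends on the normalization. At an unadjusted p under 0.05, 55 members were higher and 31 lower, beside 6.33% and 2.81% of all regions. The median difference was −0.04 on the log2 scale for members and −0.04 for all regions. With 2 libraries a group, limma drew the variance of each region toward a trend fitted over all regions tested. These p-values, and the SEs below, thus rest on that trend as well as on the spread between those libraries.

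**Figure D4:**
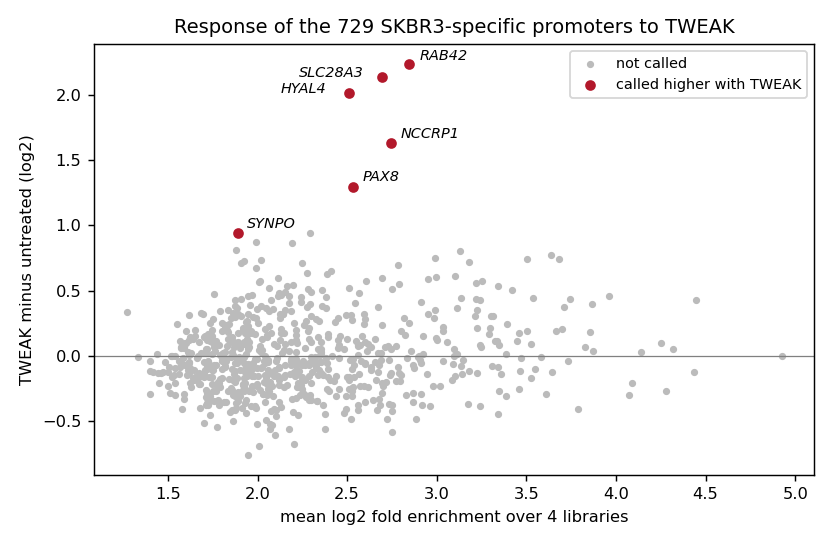
Difference between TWEAK and untreated SKBR3 (vertical axis, log2 of fold enrichment after quantile normalization) against the mean log2 fold enrichment of the 4 libraries (horizontal axis), 1 point for each of the 729 members. The 6 red points are those called higher by limma at an adjusted p under 0.05, from SYNPO at 0.94 to RAB42 at 2.24. No member was called lower in this fit, which had no replicate block.

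The largest rise was at RAB42, a small GTPase (chr1:28593015-28596957). Its fold enrichment was 3.01 and 3.54 untreated and 14.2 and 17.7 with TWEAK. The log2 difference was 2.24 (SE 0.22, adjusted p = 0.00171 with limma). The groups did not overlap, here and at the other called members, which follows from the call and adds no evidence. Peaks there also widened, from 1634 and 1589 bp to 3735 and 3875 bp. The nearest RAB42 TSS lay outside the region, within the 1 kb allowed.

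SLC28A3, a nucleoside transporter, came next (chr9:84338836-84341450). Its fold enrichment was 3.21 and 2.79 untreated and 12.7 and 15.0 with TWEAK, a log2 difference of 2.14 (SE 0.22, limma adjusted p = 0.00171). Both treated libraries were above both untreated ones. The TSS region was CpG-poor, with a ratio of 0.155.

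HYAL4, of the hyaluronidase family, rose from 3.04 and 2.50 to 9.12 and 14.6 (chr7:123844484-123847658; log2 difference 2.02, SE 0.26, limma adjusted p = 0.00582). NCCRP1, a gene of the F-box family, had values of 3.88 and 3.46 untreated against 11.3 and 12.8 with TWEAK (chr19:39191175-39199154; 1.63, SE 0.22, limma adjusted p = 0.00668). In both, the treated libraries stood apart from the untreated ones. A region with a peak in both TWEAK libraries and neither untreated one lay 0.553 kb from NCCRP1.

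PAX8, whose promoter with its AP-1 motif and E-box is printed above, is a transcription factor of thyroid, kidney and Müllerian tissue. Its fold enrichment was 4.28 and 2.84 untreated and 9.60 and 9.10 with TWEAK (chr2:113239777-113242363), a log2 difference of 1.30 (SE 0.25, limma adjusted p = 0.0465). The sixth, named here after its value was seen, was 1 of the 3 SYNPO promoters (chr5:150599688-150601391), with a mean percentile of 37.8. Its values were 2.81 and 2.46 against 5.07 and 5.48 (log2 difference 0.94, SE 0.18, limma adjusted p = 0.0437). The wide SYNPO member described above was not called, at 6.70 and 9.95 untreated and 8.63 and 9.27 with TWEAK.

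**Figure D5:**
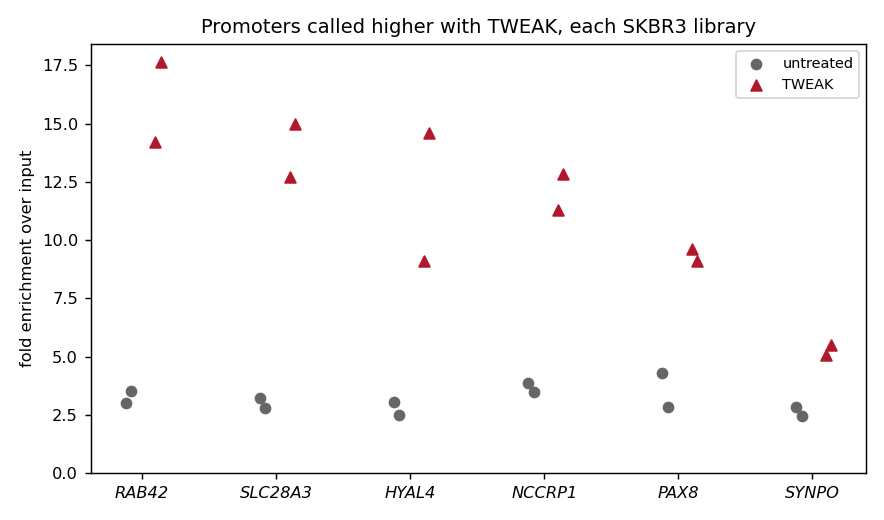
Fold enrichment over input (vertical axis) of the 6 members called higher with TWEAK, in each SKBR3 library before normalization. Circles are the 2 untreated and triangles the 2 TWEAK libraries, and the untreated values run from 2.46 to 4.28. The 6 were called from these same libraries, so triangles standing above circles follows from the call and adds no evidence.

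With summed width times fold enrichment as the measure, none of the 30481 regions was called, although the log2 differences were larger, at 3.40 for RAB42, 3.37 for SLC28A3 and 3.88 for HYAL4, each with an adjusted p of 0.0922 with limma. Without the second untreated library the log2 difference was 0.90 at PAX8 and 0.79 at SYNPO, which were no longer called (limma adjusted p = 0.221 and 0.194).

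None of the 6 members at genes of the cytokine list and the list of TNF ligands and receptors was called. TNF, whose TATA box is shown above, had percentiles of 79.4 and 63.2 untreated and 88.8 and 92.1 with TWEAK, with a log2 difference of 0.75 (SE 0.22, limma adjusted p = 0.226). IL6 was at 2.78 and 43.0 untreated and 59.2 and 73.6 with TWEAK (0.73, SE 0.22, limma adjusted p = 0.253). IL23A had a log2 difference of 0.32 (SE 0.15, limma adjusted p = 0.553). At these 3 genes both treated libraries were above both untreated ones. With 2 libraries a group this is a weak mark, and how often it held over all regions was not counted. IL12A, at percentiles of 63.0 and 72.5 untreated and 72.3 and 87.0 with TWEAK, and TNFSF9, at 57.3 and 46.8 against 37.8 and 55.0, had overlapping groups. The log2 difference was 0.38 (SE 0.24) at IL12A, −0.15 (SE 0.19) at TNFSF9 and −0.04 (SE 0.15) at TNFRSF25.

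The largest falls were at CYS1, which encodes the ciliary protein cystin, ADA2, an extracellular adenosine deaminase, and AGO4, an Argonaute protein. CYS1 had a fold enrichment of 3.90 and 6.29 untreated and 3.17 and 2.84 with TWEAK, and its log2 difference of −0.76 (SE 0.20) had an adjusted p of 0.160 with limma. The difference was −0.69 at ADA2 and −0.68 at AGO4, with limma adjusted p of 0.197 and 0.250. At 2 further members whose sequences are printed above, the log2 difference was 0.07 (SE 0.19) at CSF1R and 0.02 (SE 0.19) at EGF, and neither was called.

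Regions with a peak in both TWEAK libraries and in neither untreated SKBR3 library lay within 50 kb of 141 members, or 19.3% (16.6 to 22.4), and of 14.5% (13.8 to 15.2) of the promoters in all 8 lists. Members also had more SKBR3-specific regions around them, as given above, and the part of that in this difference was not tested.

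How many promoters count as SKBR3-specific depended on what counts as a peak. With at least 50% of the merged region covered before a list counted as holding it, there were 1455 such promoters, of which 43.2% were CpG-poor, and 9.92% of their genes had another promoter in all 4 MDA-MB-453 lists. Under that setting a region with a short MDA-MB-453 peak enters the set. With peaks of a −log10 q of at least 5 there were 433, of which 57.3% were CpG-poor.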

How the data were processed

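Lists of H3K27ac ChIP-seq peaks were analysed for both lines, untreated or with TWEAK (2 libraries per group). The authors mapped trimmed reads to hg38 with Bowtie2, called peaks per library with MACS2 against input and removed blacklisted regions; versions are not given in the sources used here. The deposited lists hold, per peak, a score, a fold enrichment (ratio), a −log10 p-value and a −log10 q-value; only the fold enrichment and −log10 q were used, the score and p not. Reads and the 2 inputs were not analysed here, so the depth behind each value is unknown.

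Peaks overlapping by at least 1 bp were merged, and TSSs came from GENCODE v44 basic. The members and gene lists were chosen with earlier results of these data known. Named are the 10 strongest and 5 widest members, up to 4 per gene list, up to 5 called with TWEAK in each direction or else the 3 largest, the 5 strongest with a second promoter, the 2 weakest and those just outside the rule; synaptotagmins, MAGE and similar families were added after seeing the data, and some named results are not reported here. Regions with a peak in all 4 SKBR3 lists were tested for TWEAK with limma 3.58.1 (R 4.3.3; log2 fold enrichment averaged by width, quantile normalization, mean-variance trend, Benjamini-Hochberg), tested first on simulated data. Shares have 95% Wilson intervals. Python 3.11.15, pandas 2.3.3, scipy 1.17.1 and pysam 0.24.0 were used. Alternatives covered the peak threshold, list size, overlap, merging, TSS distance, CpG window, normalization, region measure, replicate block and each library left out.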

Additional observations from a re-analysis of the deposited data

How the results depend on the processing

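The number of SKBR3-specific promoters (729) stayed within 1.5 times under 12 of 14 alternatives, among them lists of equal size, which gave 556. It was 433 with a −log10 q of at least 5 and 1455 with at least 50% of the merged region covered. Leaving out 1 library gave 738 to 782. The CpG-poor share (62.8%) was 49.8% with a threshold of 0.4, 57.3% with a −log10 q of at least 5 and 43.2% with the 50% overlap, and the share of genes with another promoter (27.2%) was 9.92% with that overlap; applying the overlap and the equal list sizes (62.6% and 25.5%) to these shares was decided after seeing the data. With TWEAK, 6 members were called higher and 0 lower. The count higher was 12 without normalization and 0 with summed width times fold enrichment, and 6 to 20 with 1 SKBR3 library left out (20 without the first TWEAK library, 10 without the first untreated one), with 0 to 2 called lower. Over all regions, 171 were higher and 0 lower; the counts were 394 and 5 with median centring, 483 and 3 without normalization, 0 and 0 with the summed measure, 201 and 2 with the highest peak, and 190 to 1102 and 5 to 171 with 1 library left out (1102 and 171 without the first TWEAK library). The cause was not tested. The median log2 difference of members was −0.04, and 0.04 without normalization, −0.10 with the summed measure and 0.00342 without the second TWEAK library.

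With the replicate number as a block, 48 members were called higher and 14 lower, and 1745 and 578 of all regions. Same-numbered libraries deviated together (r = 0.451 over 30481 regions), but 2 pairs do not show that the numbers pair the libraries. Depth is unknown, so a missing peak cannot be told from a shallow library.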
